A study of Mus musculus with 15 samples.

Results

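The transcriptome of cultured mouse cells without beta-actin was followed over the same interval as that of wild-type cells, and each gene was sorted by whether its change from day 4 to day 14 was shared by both genotypes, lost in the knockout, gained in the knockout or reversed. The sorting rests on the interaction of genotype and day, which is the change with day in the knockout minus the change with day in the wild type. It used 12 of the 15 libraries of the series, 3 in each of 4 groups: Actb knockout (KO) cells at day 14 and at day 4, and wild-type (WT) cells at day 14 and at day 4. The other 3, from heterozygous (HET) cells at day 14, entered the fit for its estimate of the spread between libraries. All groups were mouse embryonic fibroblasts (MEFs, connective tissue cells grown from an embryo) of strain BALB/c from 10.5 day old embryos, and the labels give the cell type of the treated cells as osteoblasts made by chemical reprogramming. Cells of every genotype were seeded on Matrigel, grown in DMEM with fetal bovine serum until confluent and moved at day 0 to OsteoMax-XF, a bone-inducing medium, with dexamethasone and forskolin, each at 5 mM as the labels give it. Treated cells are thus compared with treated cells, and no library from before the change of medium was analysed here. The labels name no embryo, clone, culture or batch and do not describe the knockout allele, so p-values measure the spread between these libraries, which may be technical.

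Beta-actin is 1 of 6 actins and, with gamma-actin, builds the filaments of non-muscle cells. Free actin monomers hold the coactivator MRTF out of the nucleus, where it joins SRF on the genes of smooth muscle and of the cytoskeleton. Dexamethasone acts through the glucocorticoid receptor. Forskolin activates adenylyl cyclase, which makes cAMP and so drives CREB target genes that are shut off again by feedback. A culture in bone-inducing medium passes through growth, matrix production and, late, mineralisation, which is why a change with day can be asked for in each genotype.

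The targeted gene was low in every KO library and moved in opposite directions. Actb (the gene at chr5:142900000-142910000, GRCm38) had 46.5, 43.0 and 44.6 CPM (counts scaled to library size) in KO libraries of day 14 and 129.9, 139 and 135 in those of day 4. It had 2947, 2974 and 3067 CPM in WT libraries of day 14 and 1193, 1186 and 1164 in those of day 4. Its log2 change with day was -1.59 ± 0.06 (SE) in KO and 1.34 ± 0.05 in WT, an interaction of -2.93 ± 0.08 (edgeR's quasi-likelihood test, adjusted p = 6.58e-14). Gene counts do not show which part of the allele is left.

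Counts in genes ran from 21.5 to 24.8 M in KO libraries of day 14, 30.7 to 35.7 M in KO of day 4, 20.02 to 20.42 M in WT of day 14 and 25.7 to 47.5 M in WT of day 4. Among the KO and WT libraries, those of WT at day 14 stood apart. They held counts for 22087, 23302 and 24154 gene IDs, against 18570 to 20275 in the other 9, although they were the shallowest, and ribosomal protein genes took 3.14, 3.56 and 3.93% of their counts, against 2.05 to 2.25%. The 3 HET libraries of day 14 held counts for 21368, 21862 and 20858 gene IDs. Ribosomal protein genes took 2.92, 4.19 and 2.96% of their counts, also above the KO libraries and the WT libraries of day 4. The WT libraries of day 14 also differed most from each other among the 4 groups. The chi-square of a pair of libraries, divided by its degrees of freedom, was 4.73 to 17, against 2.15 to 2.9 within each of the other 3 groups. The share of mitochondrially encoded genes was 1.08 to 1.12% in KO of day 14 and 0.836 to 0.845% in KO of day 4, against 0.484 to 0.542% in WT of day 14 and 0.415 to 0.421% in WT of day 4. The 4908 genes under 10 CPM in every group had a median log2 change with day of -0.05 in KO and 0.52 in WT, while the 10388 genes with at least 10 CPM in a group had 0.01 in KO and -0.04 in WT. The part of the WT libraries of day 14 in any WT rise of a low gene was not tested, and some class counts are therefore also given by level.

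Most genes changed with day in at least 1 genotype. Of 15296 genes tested, 9316 (60.9%) changed with day in KO and 11410 (74.6%) in WT at an adjusted p under 0.05, and 9897 (64.7%) had an interaction. Sorted at that threshold, 4647 genes (30.4%) changed in the same direction in both genotypes, 3060 (20%) changed in WT and lost the change in KO, 1402 (9.17%) gained a change in KO, and 2764 (18.1%) changed in opposite directions. Lost, gained and reversed genes had an interaction by definition. A further 503 genes (3.29%) passed in KO alone and 939 (6.14%) in WT alone without an interaction, 108 (0.706%) had an interaction alone, and 1873 (12.2%) passed nothing. Among the 4647 shared genes the size of the change did not differ detectably for 2084 (13.6% of all genes tested), was smaller in KO for 1776 (11.6%) and larger in KO for 787 (5.15%). Across all genes the changes of the 2 genotypes had a Pearson r of 0.27 and a Spearman rho of 0.23, a description across genes that share libraries and are not independent.

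A second sorting, by size, was used to describe genes and asked for a change of at least 2-fold that passed the test. For a lost or gained change, the other genotype had to change by under 0.5 on the log2 scale. That small change could itself pass the test, so a gene lost or gained by size can be shared or reversed in the first sorting. Of the osteoblast list, for example, 5 genes were lost by size and 3 in the first sorting. It placed 1266 genes (8.28%) as shared, of which 844 rose (5.52%) and 422 fell (2.76%). It placed 1561 (10.2%) as lost, of which 851 rose (5.56%) and 710 fell (4.64%) in WT. It placed 481 (3.14%) as gained, of which 197 rose (1.29%) and 284 fell (1.86%) in KO. The 565 reversed genes (3.69%) comprised 185 that rose in KO and fell in WT (1.21%) and 380 that fell in KO and rose in WT (2.48%). Of the 380, 259 were under 10 CPM in every group, which is 5.28% of such genes, against 121 or 1.16% of the higher ones. Lost falls lay mainly among higher genes, with 602 at 10 CPM or more (5.8%) and 108 below (2.2%). Under a correction for exon length and GC content the counts moved little, but members changed class. By size, 62.6% of the gained genes and 65.5% of the lost genes stayed in their class, against 88.9% of the shared and 82.2% of the reversed. In the first sorting 45.3% of the gained and 63.7% of the lost genes stayed, against 81.7% of the shared and 78.2% of the reversed.

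**Figure D1:**
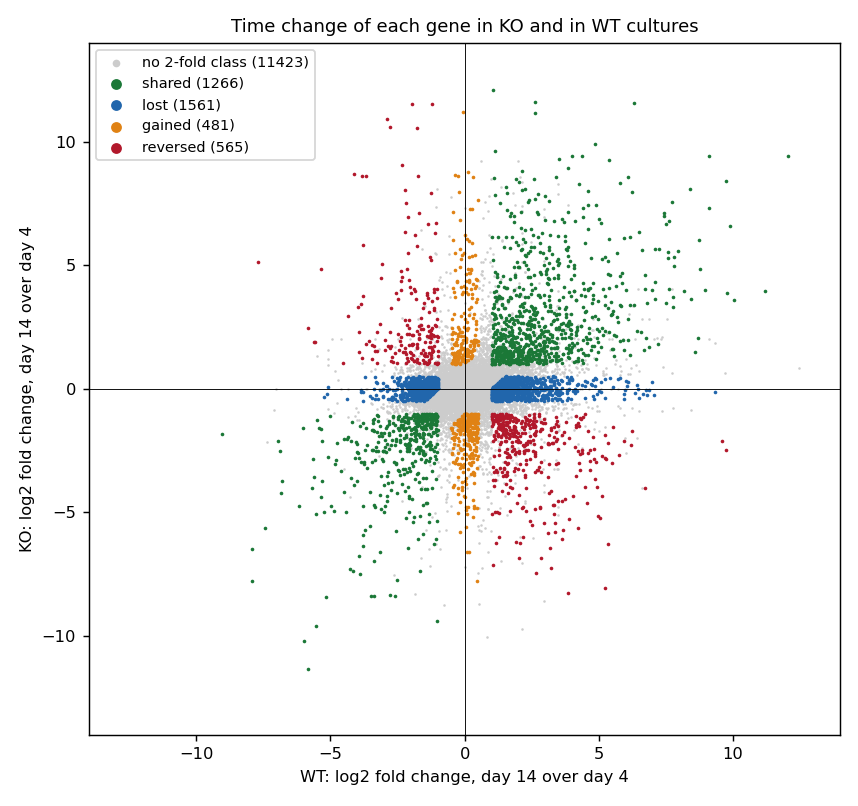
Log2 fold change of day 14 over day 4 in KO (vertical axis) and in WT (horizontal axis) for the 15296 genes tested, one point a gene, coloured by 2-fold class. The 1266 shared genes lie in the lower left and upper right, the 565 reversed genes in the other corners, the 1561 lost genes along the horizontal axis and the 481 gained genes along the vertical axis.

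**Figure D2:**
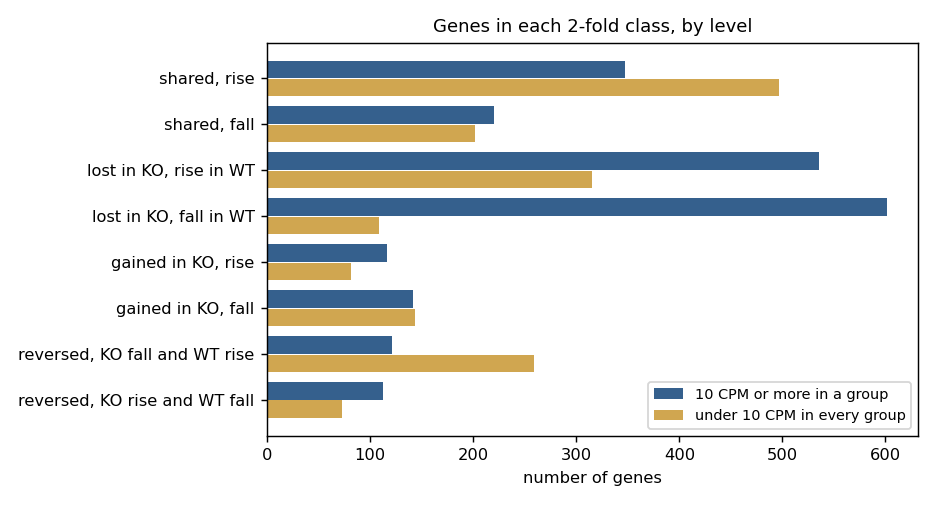
Number of genes in each 2-fold class and direction, for genes that averaged 10 CPM or more in a group and for genes under 10 CPM in every group. The reversed genes that fell in KO and rose in WT are the class with the highest share of low genes, 259 below 10 CPM and 121 above.

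Over all genes tested, the genotypes stood closer together at day 14 than at day 4. The median absolute log2 difference between KO and WT was 0.46 at day 14 and 0.58 at day 4, and 3237 genes (21.2%) at day 14 against 4341 (28.4%) at day 4 differed at least 2-fold and passed the test. Of the 4341, 2847 had an interaction and a smaller difference at day 14, and 445 had an interaction and a larger one. Read from the other end, of the 3237 genes that differed at day 14, 1551 had an interaction and a smaller difference at day 4, and 617 a larger one. Both sets were chosen by a difference that is itself part of the interaction, so these counts are descriptions. At both days 1212 genes differed at least 2-fold in the same direction and 536 in opposite directions. These values were not split by level. The libraries of day 14 were shallower in both genotypes, and those of WT at day 14 had the widest spread. The part of depth and spread in these values was not tested.

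Promoters of 6 genes whose changes with day differed are shown for 4 gene groups that recur below, each from 250 bases before to 50 bases after the start site (RefSeq, GRCm38.p6), 5′ to 3′ on the gene's strand. Each group was searched on both strands for the element its regulator is known to bind, and the match is in capitals. Ifit1 (chr19:34640639-34640938, plus strand) and Rsad2 (chr12:26456403-26456702, minus strand) are interferon-induced and were searched for the interferon-stimulated response element as GAAANNGAAANN. Chac1 (chr2:119350992-119351291, plus strand) and Slc7a11 (chr3:50443564-50443863, minus strand) are targets of ATF4 and were searched for the amino acid response element as TGATGNAA. Areg (chr5:91139349-91139648, plus strand) was searched for the cAMP response element as TGACGTCA, and Myl9 (chr2:156775214-156775513, plus strand) for the CArG box of SRF. No match overlapped a match of another of the 4 elements.
Ifit1: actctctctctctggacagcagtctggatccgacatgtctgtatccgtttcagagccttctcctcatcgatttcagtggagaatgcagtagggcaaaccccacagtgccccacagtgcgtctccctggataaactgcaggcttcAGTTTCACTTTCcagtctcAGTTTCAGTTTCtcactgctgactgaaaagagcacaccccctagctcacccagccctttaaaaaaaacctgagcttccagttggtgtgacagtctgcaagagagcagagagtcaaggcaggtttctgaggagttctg
Rsad2: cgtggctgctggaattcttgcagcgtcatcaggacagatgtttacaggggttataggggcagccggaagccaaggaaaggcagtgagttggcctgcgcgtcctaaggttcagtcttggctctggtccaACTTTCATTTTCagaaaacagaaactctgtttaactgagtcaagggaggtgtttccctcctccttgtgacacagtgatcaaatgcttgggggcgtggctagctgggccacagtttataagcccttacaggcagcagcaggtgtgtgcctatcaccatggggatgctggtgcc
Chac1: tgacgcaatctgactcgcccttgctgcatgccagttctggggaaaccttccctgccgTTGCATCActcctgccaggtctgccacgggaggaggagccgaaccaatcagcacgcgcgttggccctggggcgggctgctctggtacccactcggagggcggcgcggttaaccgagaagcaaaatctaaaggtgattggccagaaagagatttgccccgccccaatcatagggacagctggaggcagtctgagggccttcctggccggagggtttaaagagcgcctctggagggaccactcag
Slc7a11: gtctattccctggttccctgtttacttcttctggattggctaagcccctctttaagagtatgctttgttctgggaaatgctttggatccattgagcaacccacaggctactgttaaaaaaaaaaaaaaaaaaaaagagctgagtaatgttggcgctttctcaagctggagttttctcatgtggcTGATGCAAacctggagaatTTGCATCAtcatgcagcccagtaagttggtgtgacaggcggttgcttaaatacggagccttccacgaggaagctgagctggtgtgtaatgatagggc
Areg: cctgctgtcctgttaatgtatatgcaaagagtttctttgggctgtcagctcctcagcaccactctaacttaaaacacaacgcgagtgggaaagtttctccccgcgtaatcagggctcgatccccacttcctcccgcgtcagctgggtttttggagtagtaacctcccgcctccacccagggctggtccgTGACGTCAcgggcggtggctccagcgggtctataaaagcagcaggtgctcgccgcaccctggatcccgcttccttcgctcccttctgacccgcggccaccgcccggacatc
Myl9: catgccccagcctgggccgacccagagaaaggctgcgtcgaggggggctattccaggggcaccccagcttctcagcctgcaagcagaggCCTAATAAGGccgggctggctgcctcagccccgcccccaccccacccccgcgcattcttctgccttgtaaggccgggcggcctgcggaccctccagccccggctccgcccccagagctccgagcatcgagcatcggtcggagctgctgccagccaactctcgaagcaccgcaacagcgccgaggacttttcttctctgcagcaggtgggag
The interferon element was found in 14 of the 24 promoters matched for the interferon list (58.3%), against 3.74% of 10790 tested genes with a promoter in the table. Ifit1 had 2 matches, beginning 106 and 87 bases before the start site, and Rsad2 had 1 at 122 bases. The amino acid response element was in 6 of 27 promoters of its list (22.2%), against 2.76%, at 193 bases before the start in Chac1 and at 66 and 47 bases in Slc7a11. The cAMP element was in 2 of 15 (13.3%), against 3.49%, and the CArG box in 1 of 11 smooth muscle promoters (9.09%), against 1.56%. Over the 2-fold classes the interferon element was in 8.17% of shared, 2.8% of lost, 4.64% of gained and 2.53% of reversed genes. A match is a string of letters in these windows and is not evidence of binding.

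Interferon-induced genes rose in KO, most of them from very low levels at day 4. Of 31 tested members, 28 rose in KO, and 25 rose and 2 fell in WT, where 30.8% of all genes rose in KO and 39.7% in WT. The interaction was positive for 26 and negative for 2, against 30.7% and 34% of all genes. The median log2 change was 5.81 in KO and 1.15 in WT, the median of all tested genes being 0.08 in WT and that of the interaction 4.15 against -0.08. Most members, 22 of 31, were shared rises, a class that held 30.4% of all genes with either direction, though not all of these were larger in KO. Irf7, the factor that amplifies the response, had 69.4, 69.2 and 70.7 CPM in KO of day 14 and 0.815, 1.15 and 0.715 in KO of day 4, against 47.3, 51.8 and 56.3 in WT of day 14 and 7.27, 6.47 and 7.12 in WT of day 4. Isg15, a ubiquitin-like protein, had 103, 109 and 108 CPM in KO of day 14 and 1.36, 1.44 and 1.76 in KO of day 4, against 81.1, 107 and 116 in WT of day 14 and 36.3, 34.2 and 34.4 in WT of day 4. For both genes the day 4 libraries of KO lay below every WT library, and by day 14 the KO libraries had reached or passed the WT level.

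Ifit1 and Rsad2, which act against viral RNA and viral replication, were reversed. Ifit1 had 75.0, 77.4 and 78.7 CPM in KO of day 14 and 0.966, 0.767 and 1.16 in KO of day 4, against 34.2, 39.7 and 37.9 in WT of day 14 and 83.4, 80.8 and 75.9 in WT of day 4. The change was 6.30 ± 0.16 in KO and -1.10 ± 0.08 in WT (interaction 7.41 ± 0.18, adjusted p = 3.27e-15). Rsad2 had 70.3, 68.6 and 75.8 CPM in KO of day 14 and 2 counts in all 3 KO libraries of day 4, so no fold is given, against 12.9, 10.0 and 10.9 CPM in WT of day 14 and 43.8, 42.3 and 45.0 in WT of day 4. The rise was gained in KO for Oasl1, Cxcl10, Ifih1 and Mx1. Oasl1, an inhibitor of Irf7 translation in mice, had 44.5, 47.1 and 45.8 CPM in KO of day 14 and 0.0604, 0.224 and 0.0275 in KO of day 4, and 19.9, 18.6 and 17.1 in WT of day 14 and 17.2, 17.8 and 15.5 in WT of day 4, where the WT change of 0.13 ± 0.11 did not pass. Mx1, a dynamin-like antiviral GTPase, had 10.4, 10.4 and 11.4 CPM in KO of day 14, no count in KO of day 4 and at most 0.442 CPM in any WT library.

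The 2 negative interactions were those of Irf1 and Ifit2. Irf1, a factor that also answers to other cytokines, had 42.9, 45.6 and 43.9 CPM in KO of day 14 and 42.1, 43.8 and 46.2 in KO of day 4, against 75.9, 75.1 and 78.2 in WT of day 14 and 39.2, 35.5 and 35.5 in WT of day 4, a rise lost in KO (interaction -1.05 ± 0.10, adjusted p = 1.14e-07). Ifit2, of the same family as Ifit1, had an interaction of -0.30 ± 0.11 (edgeR's adjusted p = 0.0216). The call ended without KO replicate 1 or 2 of day 14, KO replicate 3 of day 4, or WT replicate 1 of either day. It also ended with no filter beyond 1 count, and the values of all these fits were -0.21 to -0.28. Several of these families hold close copies, whose shared reads the counting may have left out or assigned to the wrong copy. Macrophage markers summed to 121 to 130 CPM in KO of day 14 and 85.5 to 88.7 in KO of day 4, and to 39.8 to 40.8 in WT of day 14 and 73.7 to 77.8 in WT of day 4, most of it Cd14, with 5, 8, 3 and 6 of the 14 markers at 0. Cd14 averaged 83.2 CPM in KO of day 14 and 81.0 in KO of day 4. Cd68 had 2682 counts in KO of day 14 and 544 in KO of day 4, against 404 in WT of day 14 and 309 in WT of day 4. The part of macrophage markers in the interferon result was not tested.

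**Figure D3:**
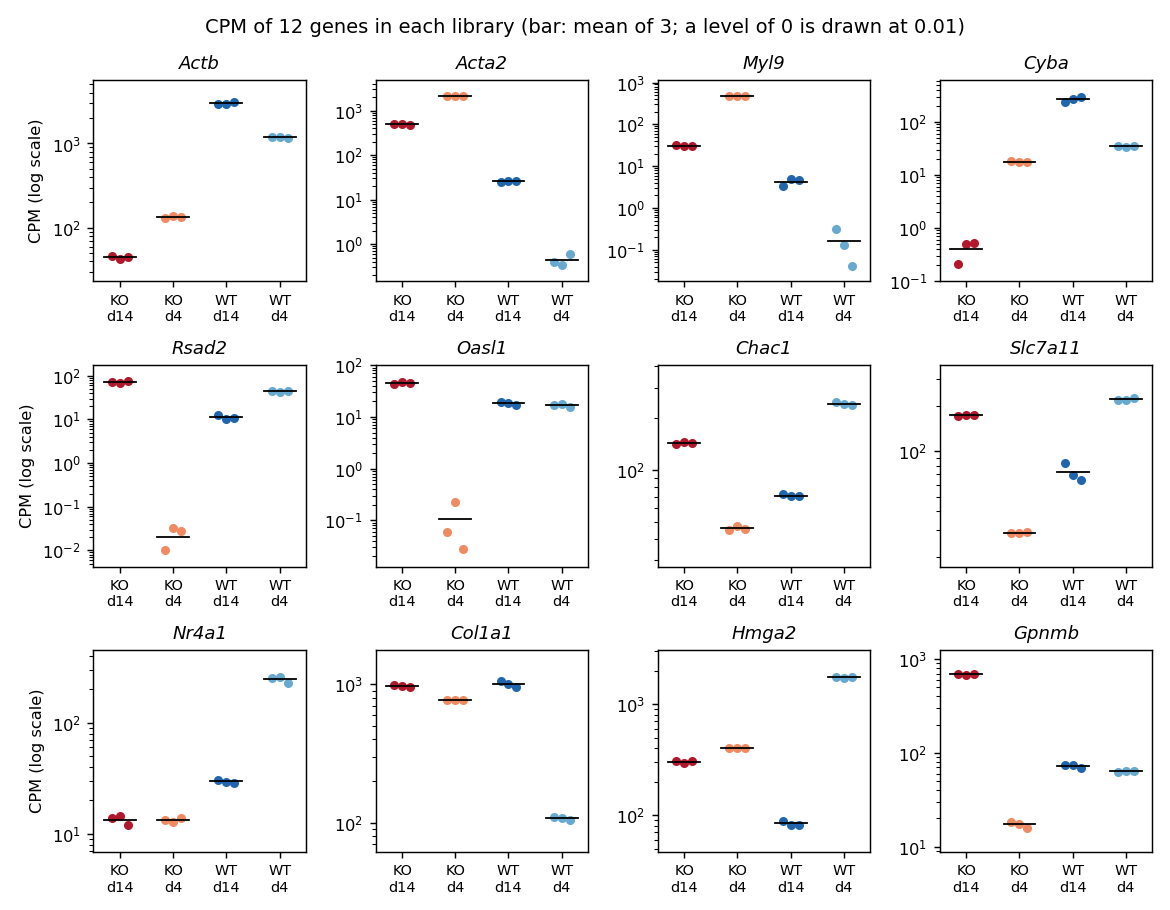
Level in CPM, on a logarithmic axis, of 12 genes in every library, grouped as KO day 14, KO day 4, WT day 14 and WT day 4, with bars at the mean of 3 libraries. Rsad2 and Oasl1 are near 0 in KO of day 4 alone. Chac1 and Slc7a11 are higher at day 14 in KO and lower at day 14 in WT, and Acta2 and Myl9 do the opposite.

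Genes of the amino acid stress response and the unfolded protein response rose in KO and fell in WT. Of 30 members, 20 rose and 3 fell in KO, and 6 rose and 23 fell in WT, where 30.1% of all genes fell in KO and 34.9% in WT. The interaction was positive for 24 and negative for 4 (80% and 13.3%, against 30.7% and 34% of all genes). Of the members 14 were reversed, a class that held 18.1% of all genes. The median log2 change was 0.43 in KO and -0.79 in WT. The median log2 difference of KO over WT was -0.01 at day 14, where members lay on both sides of 0, and -1.01 at day 4.

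Chac1, which degrades glutathione, had 142, 146 and 144 CPM in KO of day 14 and 45.1, 47.5 and 45.5 in KO of day 4, against 72.4, 70.5 and 70.7 in WT of day 14 and 250.1, 243 and 238 in WT of day 4 (interaction 3.42 ± 0.07, adjusted p = 2.61e-15). Slc7a11, the cystine importer, had 172, 173 and 172 CPM in KO of day 14 and 28.7, 28.5 and 29.3 in KO of day 4, against 84.0, 69.1 and 64.8 in WT of day 14 and 219.7, 219.9 and 224 in WT of day 4 (interaction 4.19 ± 0.15, adjusted p = 2.99e-12). In both genes the days did not overlap in either genotype. Ddit3, a factor of prolonged stress, Trib3, a pseudokinase, and Hspa5, the main chaperone of the endoplasmic reticulum, were reversed as well, with interactions of 1.89 ± 0.14, 2.14 ± 0.08 and 1.32 ± 0.08. Atf4, the factor that drives the amino acid branch, fell in both genotypes, by 0.20 in KO and 1.20 in WT on the log2 scale. Asns, the asparagine synthetase, also fell in both, by 0.30 in KO and 0.92 in WT. The chaperones Calr and Pdia4 went the other way from the list, rising by 0.13 ± 0.05 and 0.20 ± 0.04 in KO and by 1.05 ± 0.05 and 0.86 ± 0.04 in WT.

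Genes that answer to cAMP fell in WT, and for most of them the fall was lost, smaller or reversed in KO. Of 21 members, 8 rose and 8 fell in KO, where 30.8% of all genes rose and 30.1% fell, and 2 rose and 17 fell in WT, where 39.7% rose and 34.9% fell. The interaction was positive for 17 and negative for 3 (81.0% and 14.3%, against 30.7% and 34% of all genes), with a median log2 change of 0.01 in KO and -1.56 in WT. Nr4a1, an orphan nuclear receptor induced within minutes of cAMP, had 13.8, 14.4 and 12.1 CPM in KO of day 14 and 13.4, 12.7 and 14.0 in KO of day 4, against 30.7, 29.3 and 29.0 in WT of day 14 and 255, 258 and 227 in WT of day 4 (interaction 3.06 ± 0.10, adjusted p = 8.69e-13). Its KO libraries lay below all WT libraries at both days. The fall of the related Nr4a2 was lost in the same way, with an interaction of 3.28 ± 0.17. Crem, which holds an inducible repressor of the response, fell by 1.02 in KO and 2.20 in WT on the log2 scale.

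Pde4b, a cAMP phosphodiesterase, Areg, a ligand of the EGF receptor, and Atf3 were reversed. Pde4b had 159, 157 and 159 CPM in KO of day 14 and 34.6, 35.0 and 37.2 in KO of day 4, against 116, 109 and 106 in WT of day 14 and 229, 219 and 222 in WT of day 4. Areg had 8.92, 9.38 and 8.26 CPM in KO of day 14 and 1.69, 1.79 and 1.40 in KO of day 4, against 11.8, 8.03 and 9.53 in WT of day 14 and 43.3, 38.8 and 40.7 in WT of day 4. The interactions were 3.17 ± 0.10 for Pde4b, 4.51 ± 0.21 for Areg and 2.92 ± 0.08 for Atf3. Dio2, the thyroid hormone activating deiodinase and a classical cAMP target, had 0.211, 0.0457 and 0 CPM in KO of day 14 and 0.0302, 0.0640 and 0.0550 in KO of day 4, against 4.29, 2.97 and 4.02 in WT of day 14 and 107, 106 and 105 in WT of day 4. Prkar2b, a regulatory subunit of protein kinase A, and Creb3l1, a membrane-bound factor related to CREB, had negative interactions of -1.53 ± 0.13 and -1.11 ± 0.11.

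Contractile genes of smooth muscle did the opposite. Of 13 tested members of the smooth muscle list, 2 rose and 9 fell in KO, where 30.8% of all genes rose and 30.1% fell. In WT 9 rose and 1 fell, against 39.7% and 34.9% of all genes. The interaction was negative for 10 and positive for 1 (76.9% and 7.69%, against 34% and 30.7% of all genes). Of the list 6 were reversed, a class that held 18.1% of all genes. The median log2 change was -1.27 in KO and 1.96 in WT. The summed level of the 15 genes was 1680 to 1692 CPM in KO of day 14 and 4810 to 4835 in KO of day 4, against 1164 to 1224 in WT of day 14 and 1084 to 1127 in WT of day 4. The KO sum lay above the WT sum at both days, by less at day 14, and Cald1 was the largest part of the WT sum at both days.

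Acta2, smooth muscle actin, had 499, 491 and 475 CPM in KO of day 14 and 2109.5, 2128 and 2112 in KO of day 4, against 25.1, 25.9 and 26.6 in WT of day 14 and 0.389, 0.338 and 0.590 in WT of day 4 (interaction -8.06 ± 0.23, adjusted p = 9.71e-16). Myl9, the regulatory myosin light chain, had 31.7, 30.6 and 29.9 CPM in KO of day 14 and 477, 488 and 473 in KO of day 4, against 3.36, 4.96 and 4.58 in WT of day 14 and 0.320, 0.130 and 0.0421 in WT of day 4 (interaction -8.45 ± 0.37, adjusted p = 2.44e-13). The WT rise of both genes began near 0 and ended well below the lowest KO library. Tpm2, a tropomyosin, had 185, 181 and 181 CPM in KO of day 14 and 446, 433 and 442 in KO of day 4, against 106, 134 and 141 in WT of day 14 and 32.0, 32.8 and 30.2 in WT of day 4, so that the genotypes came close at day 14. Cnn1, calponin, was a gained fall, with 2.11, 3.48 and 4.31 CPM in KO of day 14 and 112, 109 and 108 in KO of day 4, and at most 0.561 CPM in any WT library. Tagln was reversed as well, with an interaction of -3.40 ± 0.17. The single positive member, Cald1, had an interaction of 0.16 ± 0.06 (adjusted p = 0.0375), whose call ended in 9 of the 12 fits without 1 library, at 0.13 to 0.17, and whose sign turned under the correction for exon length and GC content, at -0.41.

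All 4 tested actins had a negative interaction, against 34% of all genes, with a median of -5.02. They fell in different classes: Actb and Acta2 were reversed, Actg1 lost its rise and Actg2 gained a fall. Actg1, gamma-actin, had 2516, 2482 and 2485 CPM in KO of day 14 and 2289.6, 2333 and 2333 in KO of day 4, against 723, 855 and 858 in WT of day 14 and 448, 447 and 428 in WT of day 4, a rise lost in KO (interaction -0.77 ± 0.14, adjusted p = 0.000195). Actg2, the enteric smooth muscle actin, had 5.20, 4.80 and 5.85 CPM in KO of day 14 and 95.3, 98.4 and 91.9 in KO of day 4, and 2 counts in the WT libraries of day 14 and 0 in those of day 4. Acta1 and Actc1 had at most 11 counts in any group and were not tested. The actins are close copies of each other, so reads shared by them may have been left out of the counts or assigned to the wrong actin. The list of other SRF and MRTF targets, which holds no gene of the smooth muscle list, had 22 tested members. Of these 8 had a positive and 8 a negative interaction (36.4% each), close to the 30.7% and 34% of all genes. In both genotypes 12 changed in the same direction, a class that held 30.4% of all genes. Egr1 and Srgn had positive interactions of 1.39 ± 0.10 and 2.79 ± 0.21, and Thbs1 and Tpm4 negative ones of -2.46 ± 0.17 and -1.07 ± 0.07.

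**Figure D4:**
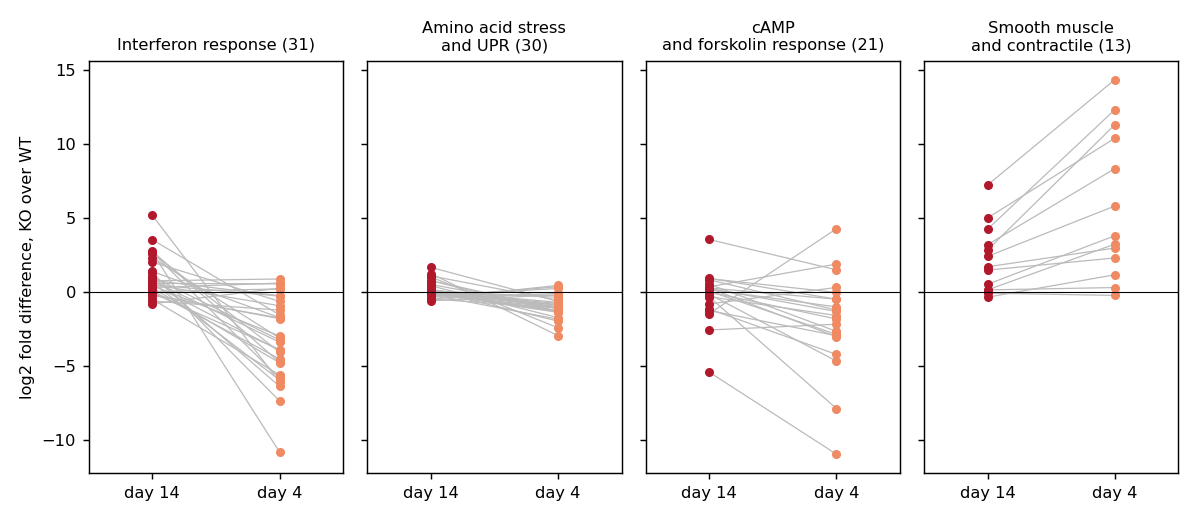
Log2 difference of KO over WT at day 14 (left) and at day 4 (right) for each tested gene of 4 lists, with a line joining the values of a gene. The median is 0.63 at day 14 and -3.11 at day 4 for the interferon list, and 1.70 at day 14 and 3.80 at day 4 for the smooth muscle list, and the amino acid and cAMP lists have medians of -0.01 and 0.06 at day 14.

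The shared rises named by size, Elf3, Fmo1, Def6 and Gbp2b, had under 2 CPM in every day 4 library of KO and WT. Elf3, an ETS factor of epithelia, had 20.4, 20.6 and 18.7 CPM in KO of day 14 and 0.996, 0.863 and 0.605 in KO of day 4, against 5.46, 7.56 and 6.78 in WT of day 14 and 0.0915, 0.260 and 0.0843 in WT of day 4. Fmo1, a flavin monooxygenase, had 11.2, 13.1 and 14.4 CPM in KO of day 14 and 0.543, 0.767 and 0.825 in KO of day 4, against 36.9, 37.1 and 34.6 in WT of day 14 and 0.800, 0.779 and 0.506 in WT of day 4. Def6, a guanine nucleotide exchange factor, and Gbp2b, an interferon-induced GTPase, rose by 6.05 ± 0.40 and 6.78 ± 0.24 in KO and by 5.37 ± 0.39 and 4.11 ± 0.13 in WT. Slco4a1, an organic anion transporter, fell to 12.1, 13.9 and 11.6 CPM in KO of day 14, against 264, 263 and 255 in KO of day 4, and to 13.0, 12.8 and 12.3 in WT of day 14, against 524, 514 and 503 in WT of day 4. Has2, which makes hyaluronan, fell by 3.89 in KO and 4.11 in WT on the log2 scale, with no detectable interaction (0.22 ± 0.24, adjusted p = 0.418). The cadherin Cdh13 changed by -4.01 ± 0.14 in KO and -5.67 ± 0.30 in WT, and Igfbp2, which binds insulin-like growth factors, by -5.92 ± 0.35 in KO and -3.79 ± 0.14 in WT. The glucocorticoid target Fkbp5 rose by 0.56 ± 0.04 in KO and 0.45 ± 0.05 in WT, with an interaction of 0.10 ± 0.06 (adjusted p = 0.175).

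Among changes lost by size, Pdgfb, a platelet-derived growth factor, had 4.99, 5.95 and 5.65 CPM in KO of day 14 and 6.61, 5.79 and 6.33 in KO of day 4, against 17.8, 13.5 and 13.9 in WT of day 14 and 0.0229, 0.416 and 0.0843 in WT of day 4. Cavin2, a coat protein of caveolae, had 59.5, 60.5 and 60.3 CPM in KO of day 14 and 80.6, 81.7 and 81.2 in KO of day 4, against 105, 105 and 103 in WT of day 14 and 3.57, 4.00 and 3.37 in WT of day 4. In both genes WT at day 4 was the group that stood low. The rises of Hacd4, an enzyme of fatty acid elongation, and Htra3, a serine protease, were lost too, with interactions of -5.69 ± 0.30 and -4.37 ± 0.35. Among lost falls, Hmga2, a chromatin protein of embryonic and proliferating cells, had 307, 297 and 307 CPM in KO of day 14 and 402, 404 and 406 in KO of day 4, against 89.5, 82.2 and 82.1 in WT of day 14 and 1751, 1732 and 1761 in WT of day 4 (interaction 3.96 ± 0.08, adjusted p = 5.51e-15). Its KO level lay between the WT levels of the 2 days. Nipal1, Mfap3l and Tcim had interactions of 4.91 ± 0.26, 3.81 ± 0.21 and 3.70 ± 0.21. For Ccnd1, cyclin D1, also lost by size, the KO change of -0.07 ± 0.10 did not pass, while WT rose by 2.57 ± 0.13. Outside this class, Myc, a transcription factor of growing cells, rose by 0.68 ± 0.05 in KO and fell by 1.70 in WT, on the log2 scale.

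Gained changes were the smallest of the 4 classes in both sortings over all genes tested. In the fit limited to genes at 10 CPM or more in a group, the sorting by size held 253 gained and 229 reversed genes. Gpnmb, a glycoprotein of lysosomes and melanosomes that also promotes bone formation in mice, had 687, 679 and 691 CPM in KO of day 14 and 18.2, 17.5 and 16.0 in KO of day 4, against 73.3, 73.7 and 68.4 in WT of day 14 and 62.0, 63.9 and 64.5 in WT of day 4 (interaction 5.14 ± 0.09, adjusted p = 1.05e-15). Klf15, a glucocorticoid target, had 54.6, 53.7 and 56.1 CPM in KO of day 14 and 1.15, 0.831 and 1.29 in KO of day 4, against 22.5, 21.8 and 24.0 in WT of day 14 and 25.4, 25.3 and 25.4 in WT of day 4. Adamtsl3, a matrix glycoprotein, had 15.1, 17.2 and 16.8 CPM in KO of day 14 and 0.181, 0.0320 and 0.110 in KO of day 4, and 14.8 to 24.2 in WT. The KO libraries of day 14 lay within the range of the WT libraries for Adamtsl3 and above it for Klf15, Enpep and Wfdc3. Enpep, an aminopeptidase, had 17.0, 18.2 and 17.7 CPM in KO of day 14 and 0.151, 0.128 and 0.0550 in KO of day 4, and at most 0.338 in WT. Wfdc3, of a family of secreted protease inhibitors, had 19.5, 20.4 and 18.5 CPM in KO of day 14 and 0.0905, 0.256 and 0.413 in KO of day 4, and at most 0.280 in WT.

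Gained falls ran the same 2 ways. Sod3, the extracellular superoxide dismutase, had 1.48, 1.55 and 1.62 CPM in KO of day 14 and 90.4, 89.8 and 82.1 in KO of day 4, against 17.0, 16.1 and 16.1 in WT of day 14 and 18.5, 18.9 and 18.7 in WT of day 4, so that KO lay above WT at day 4 and below it at day 14. Serinc2 fell to the WT level, with 0.423, 0.503 and 0.198 CPM in KO of day 14 and 18.6, 17.6 and 17.4 in KO of day 4, and at most 0.421 in WT. Cacng7 had an interaction of -5.29 ± 0.21.

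Reversed changes of other kinds were as large. Cyba, the membrane subunit of the phagocyte NADPH oxidase, had 0.211, 0.503 and 0.514 CPM in KO of day 14 and 18.4, 17.9 and 17.5 in KO of day 4, against 239, 274 and 290.4 in WT of day 14 and 34.8, 34.1 and 34.5 in WT of day 4 (interaction -8.39 ± 0.40, adjusted p = 6.47e-13). Neurl1b, a ubiquitin ligase of the Notch pathway, had an interaction of -8.35 ± 0.26. Pcdh7, a protocadherin, had 50.1, 52.8 and 51.6 CPM in KO of day 14 and 0.211, 0.0320 and 0.138 in KO of day 4, against 57.2, 51.7 and 55.2 in WT of day 14 and 182, 184 and 188 in WT of day 4. The genotypes moved toward each other and overlapped at day 14. Olr1, a receptor for oxidised LDL, had 4.99, 3.84 and 4.27 CPM in KO of day 14 and 0.211, 0.0640 and 0.0825 in KO of day 4, against 0.607, 0.186 and 0.0935 in WT of day 14 and 63.8, 62.9 and 58.9 in WT of day 4. Kng2, a kininogen, and Htr1b, a serotonin receptor, had interactions of 8.55 ± 0.29 and 8.30 ± 0.67.

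Osteoblast genes divided. The counts of this list and of those that follow stand against the shares of all genes. Of all genes, 30.7% had a positive interaction, 34% a negative one, and 30.4% were shared, 20% lost and 18.1% reversed. In KO 30.8% of all genes rose and 30.1% fell, and in WT 39.7% rose and 34.9% fell. Of 28 listed, 20 were tested, 7 with a positive and 10 with a negative interaction, and 8 changed alike in both genotypes. Sp7, the factor that commits cells to the osteoblast lineage, had 1 count in KO of day 14 and 2 in KO of day 4. In WT it had 4 counts at day 14 and 2 at day 4. Bglap, Ibsp, Dmp1 and Sost were also under the filter. At both days few or no reads were thus counted for these markers of osteoblasts, as which the labels class the cells. Alpl, alkaline phosphatase, rose in both, with 30.2, 31.6 and 34.0 CPM in KO of day 14 and 3.35, 3.71 and 3.11 in KO of day 4, against 132, 118 and 133 in WT of day 14 and 22.7, 23.1 and 20.2 in WT of day 4. Runx2, the early osteoblast factor, fell by 0.68 in KO and 1.79 in WT on the log2 scale. Spp1, osteopontin, fell by 1.54 in KO and 1.27 in WT, with an interaction of -0.27 ± 0.12 (adjusted p = 0.0715) that passed without WT replicate 1 of day 14 (-0.33, adjusted p = 0.0297) and under 4 other settings, at -0.21 to -0.33. Tnfsf11, the osteoclast-inducing cytokine RANKL, had 4.99, 7.23 and 5.65 CPM in KO of day 14 and 0.272, 0.288 and 0.633 in KO of day 4, against 55.5, 58.1 and 57.0 in WT of day 14 and 225, 223 and 225 in WT of day 4 (interaction 5.83 ± 0.29, adjusted p = 6.2e-12). Ogn, osteoglycin, was reversed in the other sense, with an interaction of -7.51 ± 0.36.

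Col1a1, a chain of collagen I, rose in WT to about the level that KO cells had at both days. It had 986, 968 and 958 CPM in KO of day 14 and 771, 769.9 and 768 in KO of day 4, against 1053, 1010.1 and 950.2 in WT of day 14 and 110.3, 107 and 104 in WT of day 4 (interaction -2.89 ± 0.09, adjusted p = 3.7e-13). Its partner chain Col1a2 was low throughout, with 8 counts in KO of day 14 and 262 in KO of day 4, against 20 in WT of day 14 and 2 in WT of day 4. Over the 28 tested genes of collagens and matrix, 7 rose and 17 fell in KO, and 11 rose and 15 fell in WT, with 11 positive and 14 negative interactions and 9 reversed. Col6a2 fell by 1.74 in KO and rose by 1.55 ± 0.07 in WT. The falls of Col4a1 and Col5a2, of basement membrane and fibrils, were lost, with interactions of 1.64 ± 0.11 and 1.42 ± 0.07, and Tnc, tenascin C, fell in both, by 3.72 in KO and 5.30 in WT.

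Matrix proteases and their inhibitors held 11 positive and 9 negative interactions among 22, with 8 reversed. Mmp3, stromelysin, had 194, 191 and 180.3 CPM in KO of day 14 and 17.1, 18.7 and 17.4 in KO of day 4, against 30.8, 38.9 and 36.1 in WT of day 14 and 509, 507 and 520.0 in WT of day 4 (interaction 7.27 ± 0.13, adjusted p = 2.68e-15). Adamts1 was reversed in the same sense (5.05 ± 0.10) and Adamts5 in the opposite one (-2.12 ± 0.10). The rise of Adamts2, which trims procollagen, was lost (-3.31 ± 0.15).

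Signalling genes of bone were sorted by role. In the BMP and TGF-beta pathway 22 of 42 members had a positive interaction (52.4%, against 30.7% of all genes). The 14 with a negative one (33.3%, against 34%) were close to the share of all genes, and 13 members were lost and 9 reversed. Among ligands, Bmp4 had 4.52, 3.84 and 4.03 CPM in KO of day 14 and 3.77, 3.39 and 3.88 in KO of day 4, against 44.0, 37.0 and 39.8 in WT of day 14 and 4.76, 3.32 and 3.92 in WT of day 4, and Inhba, a subunit of activin, was reversed (5.61 ± 0.14). Grem1, a secreted BMP antagonist, had 257, 253 and 257 CPM in KO of day 14 and 89.0, 85.7 and 89.7 in KO of day 4, against 277, 254 and 259 in WT of day 14 and 2522, 2516 and 2563 in WT of day 4. Grem1 thus differed between genotypes at day 4 and overlapped between them at day 14. Among targets, the WT rise of Id1 was lost in KO (-1.57 ± 0.19), Id3 rose by 1.11 ± 0.10 in KO and 3.18 ± 0.11 in WT, and the inhibitor Smad7 was reversed (2.28 ± 0.17). Ltbp2, a matrix protein related to the binders of latent TGF-beta, lost its WT rise (-3.58 ± 0.21).

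In the IGF axis 9 of 16 members had a positive and 4 a negative interaction, 4 fell in KO against 12 in WT, and the median log2 change was 0.22 in KO and -1.56 in WT. The falls of the receptor Igf1r and of Irs1, its adaptor, were lost, with interactions of 2.32 ± 0.33 and 2.74 ± 0.34, and Insr, the insulin receptor, was reversed (1.58 ± 0.17). The binding proteins Igfbp4 and Igfbp7 had negative interactions of -2.49 ± 0.16 and -1.20 ± 0.11. In the Wnt pathway 11 of 38 had a positive and 16 a negative interaction, and 9 were reversed. The falls of the receptors Fzd1 and Fzd5 were lost (1.41 ± 0.08 and 1.90 ± 0.15) and Fzd2 was reversed (-2.90 ± 0.16). Sfrp2, a secreted Wnt antagonist, had 0.0423, 0.0457 and 0.119 CPM in KO of day 14, which is 5 counts in all, and 4.86, 4.73 and 4.98 in KO of day 4, against 9.43, 9.74 and 9.95 in WT of day 14 and 1.71, 2.65 and 2.06 in WT of day 4.

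**Figure D5:**
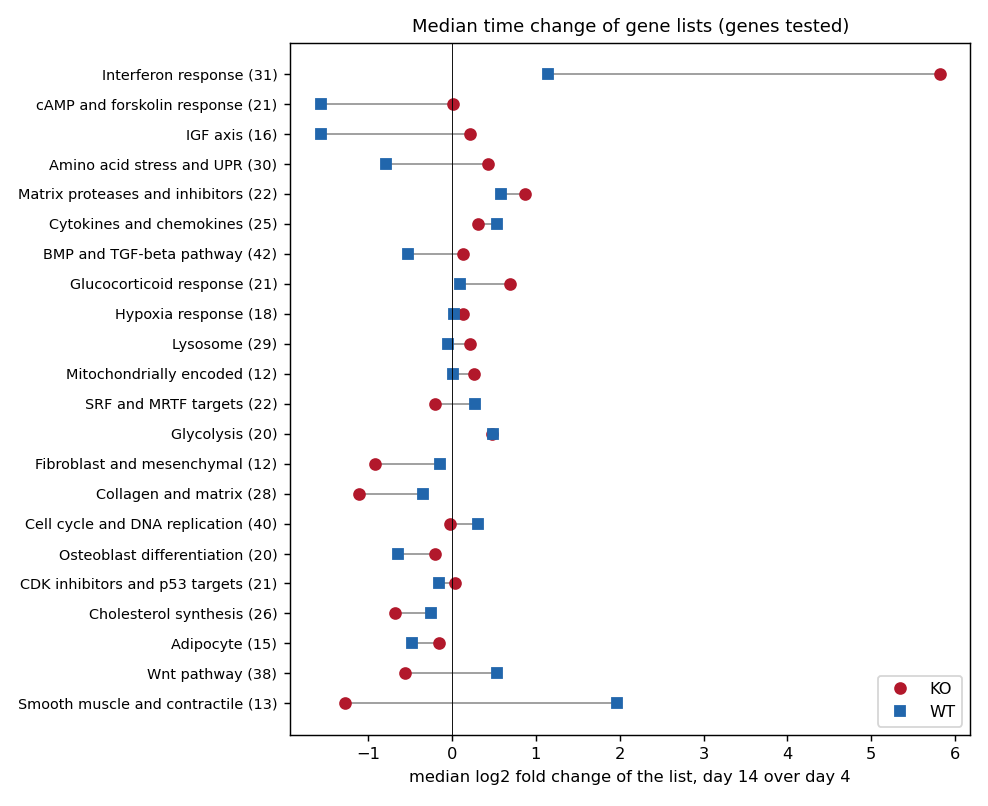
Median log2 change of day 14 over day 4 in KO (circles) and in WT (squares) for each list with at least 10 tested genes, the number tested in brackets, ordered by the median interaction. The interferon list has the widest separation in favour of KO (5.81 in KO, 1.15 in WT) and the smooth muscle list the widest in favour of WT (-1.27 in KO, 1.96 in WT).

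Cell cycle genes did not move as a block. Of 40, 13 rose and 15 fell in KO, where 30.8% of all genes rose and 30.1% fell. In WT 21 rose and 13 fell, against 39.7% and 34.9% of all genes. The interaction was positive for 10 and negative for 19 (25% and 47.5%, against 30.7% and 34% of all genes). Ccnb2, cyclin B2, had 88.5, 86.5 and 90.3 CPM in KO of day 14 and 78.5, 81.5 and 74.3 in KO of day 4, against 137, 139 and 147 in WT of day 14 and 20.5, 19.3 and 19.8 in WT of day 4, a rise lost in KO, and Bub1 of the spindle checkpoint was reversed (-1.11 ± 0.08). The replication genes Cdc6 and Mcm3 fell in WT by 1.02 and 0.88, falls that were lost in KO (1.09 ± 0.07 and 0.80 ± 0.06). Mki67, the proliferation marker, passed in neither genotype alone, with an interaction of -0.49 ± 0.17 (adjusted p = 0.02) that ended without WT replicate 1 of day 14 (-0.39, adjusted p = 0.06). Inhibitors of cyclin-dependent kinases and p53 targets held 9 positive and 10 negative interactions among 21, with Sesn2 and Plk2 positive (1.64 ± 0.10 and 1.82 ± 0.08) and Sesn1 and Ccng1 negative (-2.24 ± 0.08 and -1.33 ± 0.07). The replication histones had 9 tested members, 7 of which rose in KO and 3 in WT.

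Of the 21 genes of the glucocorticoid response, 14 rose and 5 fell in KO, and 9 rose and 9 fell in WT, with 11 positive and 6 negative interactions. Klf9, a target that dampens the response, rose by 0.18 ± 0.05 in KO and fell by 2.37 in WT on the log2 scale, and Lcn2, lipocalin 2, rose in both, by 1.19 ± 0.08 in KO and 3.60 ± 0.08 in WT. Nfkbia, the inhibitor of NF-kappaB, rose by 1.07 ± 0.09 in KO and 1.81 ± 0.09 in WT. Cholesterol synthesis fell more widely in KO: of 26 genes 1 rose and 22 fell in KO, and 6 rose and 15 fell in WT, again against 30.1% of all genes that fell in KO and 34.9% in WT. Mvd of the mevalonate pathway had 168, 171 and 164 CPM in KO of day 14 and 482, 476 and 473 in KO of day 4, against 256, 266 and 285 in WT of day 14 and 141, 138 and 135 in WT of day 4. Idi1 of the same pathway and Insig1, which restrains it, had positive interactions of 0.66 ± 0.10 and 0.75 ± 0.07.

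Lysosomal genes held 17 positive and 8 negative interactions among 29, and 11 were reversed. Sqstm1, the autophagy receptor p62, had 1585, 1575 and 1568 CPM in KO of day 14 and 486, 470.0 and 478 in KO of day 4, against 639.5, 666 and 693 in WT of day 14 and 1479, 1457 and 1444 in WT of day 4 (interaction 2.85 ± 0.08, adjusted p = 3.19e-13). The protease Ctsh and Tfeb, the factor that drives lysosomal genes, had negative interactions of -3.43 ± 0.15 and -2.19 ± 0.13. Glycolysis held 7 positive and 7 negative interactions among 20 (35% each), close to the 30.7% and 34% of all genes, with a median log2 change of 0.49 in KO and 0.49 in WT. Its genes Hk2 and Pfkm were reversed and opposite in sign (3.78 ± 0.10 and -2.53 ± 0.09), and Tpi1 rose in both. Hypoxia genes held 10 positive and 4 negative among 18. The fall of the glucose transporter Slc2a1 was lost (1.68 ± 0.06) and Ndrg1 was reversed (3.12 ± 0.06).

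Cytokines and chemokines held 11 positive and 8 negative interactions among 25. Il33, an alarmin, had 282, 284 and 283 CPM in KO of day 14 and 5.67, 5.98 and 5.34 in KO of day 4, against 80.1, 82.1 and 78.8 in WT of day 14 and 18.9, 17.5 and 18.5 in WT of day 4. Ptgs2, which makes prostaglandins and is induced by cAMP, fell in both, to 152, 155 and 154 CPM in KO of day 14, against 595, 598 and 607 in KO of day 4, and to 288, 285 and 268 in WT of day 14, against 5645, 5678 and 5898 in WT of day 4. Cxcl12 was reversed (-4.18 ± 0.09) and Csf1 rose by 0.66 ± 0.06 in KO and 3.08 ± 0.06 in WT. Adipocyte genes held 6 positive and 8 negative interactions among 15, with 5 rising and 8 falling in each genotype. Adipoq, Plin1 and Cfd were under the filter, and Pparg fell by 0.85 in KO while its WT change of 0.42 ± 0.27 did not pass. Fabp4 had 29673 counts in KO of day 14 and 7820 in KO of day 4, against 885 in WT of day 14 and 1687 in WT of day 4. The list summed to 5840 to 5874 CPM in KO of day 14 and 8845 to 8849 in KO of day 4. In WT it summed to 2873 to 3291 CPM at day 14 and 5179.5 to 5235 at day 4, with Scd2 highest in every group.

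Markers of other cell types and of the starting fibroblasts were read as summed levels. Cartilage genes, 7 of 17 tested with 4 positive and 3 negative interactions, summed to 61.2 to 69.0 CPM in KO of day 14 and 45.0 to 48.6 in KO of day 4, against 23.0 to 31.8 in WT of day 14 and 47.4 to 51.9 in WT of day 4. Sox9 was the highest of them in KO and Col11a2 in WT. Sox9 had 31.5, 32.1 and 27.9 CPM in KO of day 14 and 21.1, 21.2 and 22.4 in KO of day 4, against 1.68, 1.53 and 2.103 in WT of day 14 and 6.31, 7.35 and 4.85 in WT of day 4. Endothelial markers summed to 6.15 to 7.37 CPM in KO of day 14 and 4.06 to 5.27 in KO of day 4, against 82.1 to 91.1 in WT of day 14 and 49.3 to 54.2 in WT of day 4. Eng was the highest of them in WT, with a mean of 80.5 CPM at day 14 and 40.1 CPM at day 4. Of the endothelial markers 5 were tested, 2 positive and 1 negative, and of the macrophage markers 4, 2 positive and 1 negative. Epithelial markers (5 tested, 2 negative) reached at most 12.5 CPM, skeletal muscle markers (1 tested, negative) at most 18.3 CPM, most of it Des, and neural markers (5 tested, 4 negative), most of it Nes, summed to 146 to 153 CPM in KO of day 14 and 218 to 226 in KO of day 4, against 133 to 143 in WT of day 14 and 121 to 122 in WT of day 4. Fibroblast genes summed to 2120 to 2159 CPM in KO of day 14 and 1704 to 1717 in KO of day 4. Their WT sums were 1778 to 1820 CPM at day 14 and 1631 to 1649 at day 4. Vim was the highest of them in KO, with a mean of 1536 CPM at day 14 and 633 CPM at day 4. Of the 12 tested, 4 rose and 7 fell in KO, and 3 rose and 6 fell in WT. The median log2 change of the list was -0.91 in KO and -0.14 in WT. Fibroblast genes held 5 positive and 5 negative interactions among 12, and mitochondrially encoded genes 5 positive and 1 negative among 12. In total RNA of a culture, a change in the number of cells of a type and a change of RNA per cell cannot be told apart.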

How the data were processed

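The 15 samples were sequenced as TruSeq RNA v2 libraries, a kit that does not mark strand, per the labels' protocols. The authors deposited whole-number counts per gene, 1 file a library. The submitters' processing notes name TopHat2 2.1.0, HTSeq, DESeq2 and the build GRCm38.p4. The annotation used, the counting by strand and further versions were not given in the sources used here. The files hold 46603 gene IDs, of which GENCODE M21 gave 46091 a symbol, and the other 512 held 0.051% of counts.

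Groups and days were read from the labels. The main test was edgeR 4.0.16 in R 4.3.3 (quasi-likelihood, robust, TMM scaling, filterByExpr) on all 15 libraries, 1 mean a group. P-values were adjusted by Benjamini-Hochberg over 15296 genes within each contrast, with a threshold of 0.05. Errors after ± are Wald standard errors of log2 values, n = 3 libraries a group. The common biological coefficient of variation was 8.33%. With 3 libraries, values per library are given in place of an SD.

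The comparison, the gene lists and the named genes were chosen with earlier results of these data known. Lists were compiled from general knowledge. Named are, per 2-fold class and direction, the 4 genes with the largest interaction (for shared genes, the largest smaller change) among those at 10 CPM in a group, 10 counts in every group and days that do not overlap. Up to 2 positive and 2 negative calls a list follow by smallest adjusted p, with members a class is described by, the actins and some well-known genes. Genes with under 10 counts in a group are given as levels. Dlx3, Bmp2, Col1a2, Phex, Cd68 and Fabp4, where named, were chosen after their values were seen. Of 128 genes named, 35 share exon bases with another annotated gene, whose reads cannot be told apart without strand.

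Some results are not reported here. The pipeline was tested on simulated data. Alternatives were DESeq2 1.42.0, RLE scaling, other filters, only the 12 libraries, a block for the replicate number and leaving out single libraries. A limit to genes at 10 CPM and a spline correction (5 degrees of freedom) for GC content and exon length were chosen after seeing the data.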

Additional observations from a re-analysis of the deposited data

Results flagged for a closer look

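Of the named genes with at least 10 counts in every group, 28 changed at least 2-fold with day in opposite directions in the genotypes and passed the test of that difference (edgeR's quasi-likelihood test of the interaction). Each value is the interaction, the log2 change with day in KO minus that in WT.

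Higher at day 14 than at day 4 in KO, and lower in WT, were Olr1 (12.83), Pcdh7 (10.34), Kng2 (8.55), Htr1b (8.30), Ifit1 (7.41), Mmp3 (7.27), Tnfsf11 (5.83), Inhba (5.61), Adamts1 (5.05) and Grem1 (4.80). Smaller interactions of this direction were found for Areg (4.51), Slc7a11 (4.19), Hk2 (3.78), Chac1 (3.42), Pde4b (3.17), Atf3 (2.92) and Sqstm1 (2.85). Lower at day 14 than at day 4 in KO, and higher in WT, were Myl9 (-8.45), Cyba (-8.39), Neurl1b (-8.35), Acta2 (-8.06), Ogn (-7.51), Cxcl12 (-4.18), Col6a2 (-3.29), Tpm2 (-3.27), Actb (-2.93), Fzd2 (-2.90) and Thbs1 (-2.46). The genes were named partly for their interaction, so the list is a description.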

How the results depend on the processing

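Counts of genes changed with day, of interactions and of the classes stayed within 1.5 times under 19 of 20 settings. A steady count can hold other genes: under the correction for exon length and GC content, 45.3% of the gained and 63.7% of the lost genes kept their class. Under the fit limited to genes at 10 CPM or more in a group, which tests fewer genes, 887 genes gained a change in KO (1402 in the main result), and the classes by size held 562 shared (1266), 253 gained (481) and 229 reversed (565). With 1 library left out, the interaction count ran from 9461 to 9934, changes with day from 8585 to 9574 in KO and from 10935 to 11521 in WT, shared genes from 4239 to 4586, lost from 2882 to 3395, gained from 1314 to 1546 and reversed from 2495 to 2762. The classes by size then ran from 1217 to 1275 shared, 1482 to 1671 lost, 460 to 494 gained and 548 to 565 reversed. Replicate numbers did not pair the libraries: residuals of 18 same-numbered pairs correlated from -0.087 to 0.035, with 0 above 0.1, and the replicate block gave 9803 interactions, 4560 shared, 3064 lost, 1415 gained and 2723 reversed genes. Of 2558 values of named genes under the alternatives, 2530 kept their direction and side of the threshold, 18 lost the call, 7 gained it and 3 changed sign. These 3 were Def6 without WT replicate 2 of day 4 (-0.29; -0.29 to 0.99 without 1 library), and Cald1 (-0.41) and Fkbp5 (-0.19) with the correction for exon length and GC content. The cause was not tested. Elf3 without WT replicate 2 of day 4 passed (-1.53, edgeR's adjusted p = 0.0153). Of 15296 genes, 1527 had under 10 counts in a group, which limits their fold changes.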

Other observations

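Several genes were near 0 in 2 or more of the 4 groups of KO and WT. Fam111a, a restriction factor for viruses in mammalian cells, had 167, 158 and 159.6 CPM in KO of day 14 and 59.0, 58.6 and 59.5 in KO of day 4, against 6 counts in all WT libraries of day 14 and 0 in those of day 4. Selp, the adhesion molecule P-selectin, had 112, 114 and 119 CPM in KO of day 14 and at most 0.374 CPM in any other library of KO or WT. Bmp2, a bone-inducing ligand, had 714 counts in WT of day 4 and 3 in WT of day 14, and 0 counts in both KO groups. Dlx3, a homeobox factor of bone and skin, had 1 count in each KO group, against 17 in WT of day 14 and 740 in WT of day 4. Phex, an endopeptidase of bone cells, had 8 counts in KO of day 14 and 1151 in KO of day 4, against 7 in WT of day 14 and 105 in WT of day 4.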
